A study of Mus musculus with 8 samples.

Results

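Wnt ligands are secreted, lipid-modified glycoproteins that signal between neighbouring cells, and their transcripts were followed here in 4 primary murine pancreatic ductal adenocarcinoma (PDAC) cell lines treated with the MEK inhibitor trametinib. The genes described are Wnt4, Wnt5a, Wnt6, Wnt7a, Wnt7b, Wnt9a, Wnt10a, Wnt10b, Wnt11 and Wnt16, 10 of the 19 murine Wnt ligands and 10 of the 34478 genes in the deposited table. They were picked by name with the response to trametinib already known, Wnt16 being among the strongest rises, so their change with trametinib is described below without a test. The lines, numbered #1, #3, #5 and #10, were derived from tumors of a genetically engineered mouse model that carries Ptf1awt/Cre and Trp53loxP/loxP. Cre, driven from the Ptf1a locus of the pancreatic lineage, removes Trp53, and both treatment groups share the same genotype. Each line gave 1 library after 48 h at its own IC50 of trametinib (labelled MEKi in the plots) and 1 library with the solvent DMSO, so the dose was set per line. Whether a line is a single clone, whether the lines come from separate mice, and the age of the mice are not given in the sources used here.

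In a Wnt-producing cell the acyltransferase Porcn attaches a lipid to the ligand and the carrier Wls takes it to the surface. On the receiving cell the ligand binds a Frizzled receptor. Together with the co-receptors Lrp5 and Lrp6 this stabilises β-catenin, which turns on target genes with TCF and LEF factors, whereas signaling through Ror1, Ror2 or Ryk acts on cell polarity and movement. Wnt7a and Wnt7b, Wnt10a and Wnt10b, and Wnt9a are mostly known as β-catenin ligands, Wnt5a and Wnt11 as β-catenin-independent ones, and Wnt4 has been described in both roles. Wnt16 is known from bone mass and from the specification of blood stem cells.

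A promoter was available for 7 of the 10 ligands, and the 250 bases before the start of transcription (RefSeq, GRCm38.p6, strand of the gene) are given for 4 of them. Wnt16 and Wnt9a are shown because they rose most, and Wnt7a because it was the most abundant ligand. Wnt11 is shown because 1 of its 2 windows was the only one of the 8 ligand windows with a TCF/LEF motif. The other Wnt11 window held none of the motifs and is not shown. Capitals mark motif letters on either strand.
Wnt16, chr6:22287977-22288226, plus strand: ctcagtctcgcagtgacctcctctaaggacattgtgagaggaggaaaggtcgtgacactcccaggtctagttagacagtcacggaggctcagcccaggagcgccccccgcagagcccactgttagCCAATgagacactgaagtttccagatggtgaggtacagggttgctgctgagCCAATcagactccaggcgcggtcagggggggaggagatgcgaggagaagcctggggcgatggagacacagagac
Wnt9a, chr11:59306680-59306929, plus strand: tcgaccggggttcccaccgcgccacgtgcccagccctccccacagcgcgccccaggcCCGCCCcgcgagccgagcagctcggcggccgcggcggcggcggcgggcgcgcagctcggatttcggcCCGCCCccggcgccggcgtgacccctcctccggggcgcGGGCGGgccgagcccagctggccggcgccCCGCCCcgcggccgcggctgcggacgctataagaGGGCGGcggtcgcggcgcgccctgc
Wnt7a, chr6:91411354-91411603, minus strand: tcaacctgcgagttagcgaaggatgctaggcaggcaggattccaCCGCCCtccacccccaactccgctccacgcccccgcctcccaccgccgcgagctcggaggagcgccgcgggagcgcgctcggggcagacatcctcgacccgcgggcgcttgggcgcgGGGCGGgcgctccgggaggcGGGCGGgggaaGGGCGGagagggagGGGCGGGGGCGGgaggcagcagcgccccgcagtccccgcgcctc
Wnt11, chr7:98834862-98835111, plus strand, the upstream start: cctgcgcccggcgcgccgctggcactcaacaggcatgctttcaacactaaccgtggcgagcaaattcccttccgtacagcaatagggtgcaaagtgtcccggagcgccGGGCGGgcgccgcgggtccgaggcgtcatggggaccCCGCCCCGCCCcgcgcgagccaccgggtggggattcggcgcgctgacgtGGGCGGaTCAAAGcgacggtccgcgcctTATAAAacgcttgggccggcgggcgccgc
The letters searched were those of AP-1 (TGANTCA), TCF/LEF (CTTTGA), ETS (CCGGAAG), TEAD (GGAATG), the TATA box (TATAAA), the CCAAT box (CCAAT), the GC box (GGGCGG) and, by name, the CArG box bound by SRF. The CCAAT and GC boxes were added after the windows had been read, and neighbouring GC boxes can overlap. In the Wnt16 window 2 CCAAT boxes were found, from 125 to 121 and from 74 to 70 bases before the start, and none of the other letters. The Wnt9a window held 5 GC boxes and the Wnt7a window 6. The Wnt11 window shown held 4 GC boxes, a TCF/LEF match from 50 to 45 bases and a TATA box from 29 to 24 bases before the start. Of all 32851 windows of this length, 33.8% held a CCAAT box, 32.7% a GC box, 13.8% the TCF/LEF letters, 12.4% the TATA box, 12.6% the TEAD letters, 6.91% the ETS letters, 6.75% the AP-1 letters and 1.47% a CArG box. The GC content of the Wnt16 window was 59.2%, against 84.4% for Wnt9a, 77.6% for Wnt7a and a median of 52.4% over all windows. These matches describe the letters only.

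The libraries summed to between 30680091 and 36385719 normalized counts. The value of 1 read, estimated from the pile-up of the lowest values, lay between 0.774 and 1.24 normalized counts and put the depth at about 29300000 to 46000000 reads, with the trametinib library the deeper in 2 of 4 lines. A floor of 3 reads thus comes to 2.32 to 3.72 normalized counts and covers counting error only. It is approximate because not all low values were whole multiples of the value of 1 read. As a check of the treatment, 10 of 10 genes known to depend on MAPK signaling were lower with trametinib, among them Dusp6, with a log2 fold change of -2.51 (limma, SE 0.14, adjusted p = 0.00012). The keratins Krt7, Krt8, Krt18 and Krt19 and the cadherin Cdh1 were abundant in all libraries, with a summed epithelial marker level of 220830.1 to 347527 with DMSO and 112419.7 to 220764 with trametinib, and 4 of the 5 tested, the keratins, lower, although the epithelial marker Epcam was listed at 0 in both libraries of lines #1, #5 and #10. Fibroblast markers summed to 95.8 to 369 normalized counts with DMSO and 440.0 to 1259.8 with trametinib over 9 genes. The difference lay in Col1a1, without which the sums were 65.8 to 239 and 63.6 to 153, while Lum was listed at 0 in all 8 libraries. Endothelial markers summed to 30.9 to 54.6 and 62.7 to 831, and to 14.5 to 47.3 and 25.9 to 70.3 without Tek. Leukocyte markers summed to 149 to 214 and 150.4 to 239. Acinar markers summed to 24.8 to 247 and 16.5 to 125, with Cpa1 listed at 0 in all libraries. The part of Col1a1- or Tek-expressing cells in the results below was not tested. In bulk RNA, more cells that express a gene and more RNA per cell cannot be told apart.

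The ligands differed widely in abundance. To compare genes, normalized counts were divided by the exon length of each gene in GENCODE M21. Per kilobase, Wnt7a stood at 802 ± 389.8 (SD, n = 4 lines) normalized counts with DMSO. Wnt7b followed at 38.7 ± 28.9, Wnt10a at 26.1 ± 12.0, Wnt4 at 15.9 ± 6.01, Wnt10b at 11.3 ± 12.2 and Wnt5a at 8.77 ± 6.80 (SD, n = 4 lines each). Wnt9a, Wnt11, Wnt6 and Wnt16 were lowest, at 1.65 ± 1.21, 0.837 ± 0.819, 0.742 ± 1.23 and 0.324 ± 0.241 (SD, n = 4 lines each). Wnt7a lay above every other ligand in all 4 DMSO libraries, and each ligand below it overlapped in its range with the next in this order. With trametinib the order per kilobase was Wnt7a at 1117 ± 571, Wnt4 at 221 ± 145, Wnt10a at 136 ± 85.7, Wnt16 at 128 ± 114 and Wnt9a at 98.1 ± 31.3 (SD, n = 4 lines each). Wnt10b, Wnt7b, Wnt5a, Wnt11 and Wnt6 followed at 52.2 ± 35.2, 40.6 ± 35.9, 36.6 ± 31.7, 7.75 ± 4.92 and 1.02 ± 0.968 (SD, n = 4 lines each). By its mean, Wnt16 thus moved from the tenth to the fourth place among the 10, but its place differed between lines. With DMSO all its values lay at or below the floor of 3 reads, and ligands listed at 0 lay below it in lines #3 and #5. With trametinib its range overlapped with those of all ligands but Wnt7a, Wnt11 and Wnt6. In line #5 it lay above all but Wnt7a, while in line #10 it lay below Wnt7a, Wnt4, Wnt10a, Wnt10b, Wnt7b and Wnt9a. Wnt7a again had no overlap with the next ligand, and Wnt6 none with Wnt11.

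**Figure D1:**
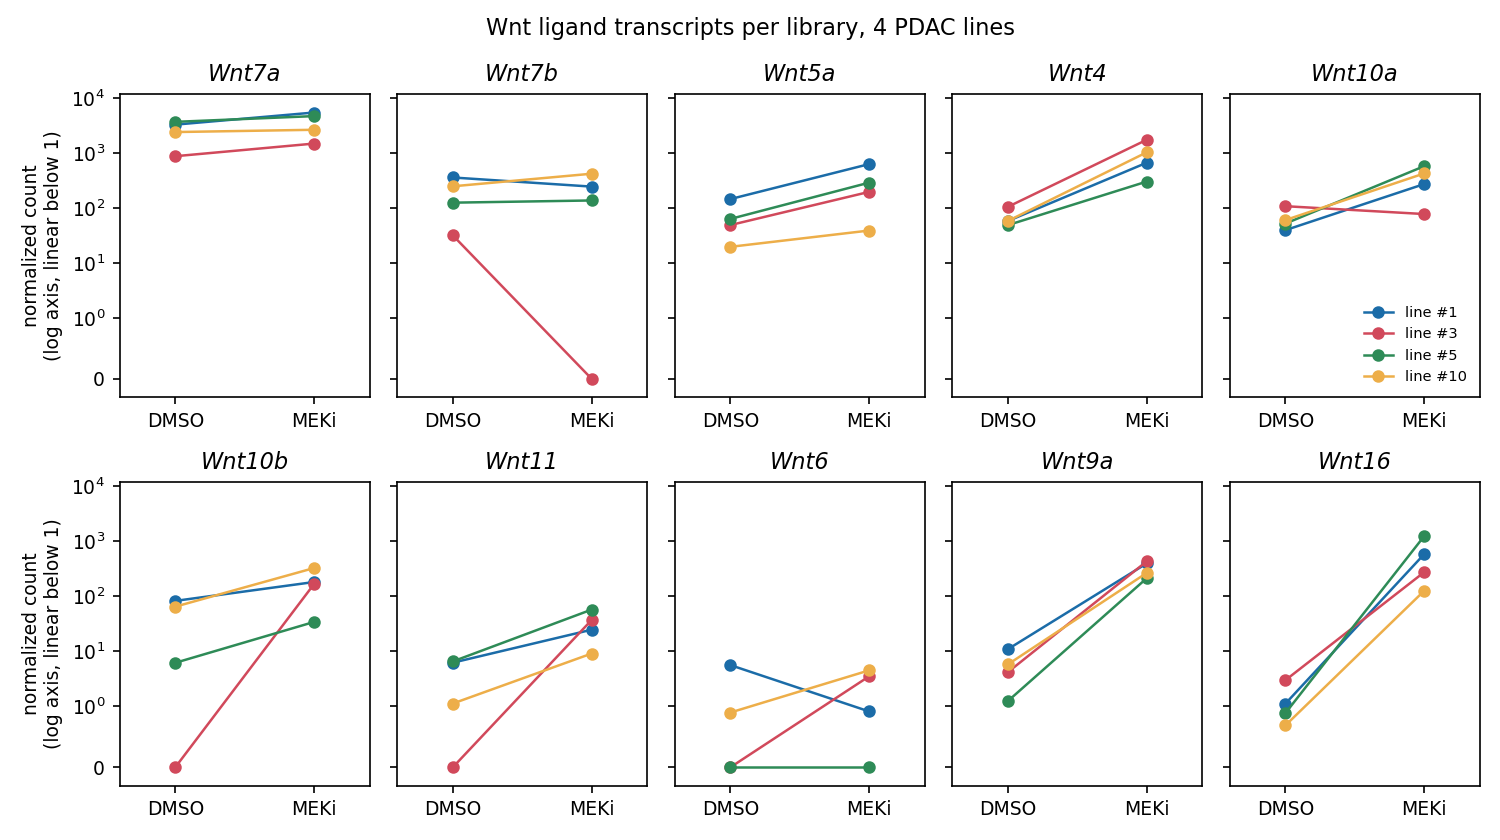
Normalized counts of the 10 Wnt ligands (vertical axis, logarithmic and linear below 1) in the DMSO and the trametinib (MEKi) library of each PDAC line, joined by a line. Wnt16 climbed from 0.685 to 2.97 up to 126 to 1244, while Wnt7a started between 868 and 3661 and changed least among the ligands that rose in all lines.

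Of the 10 ligands, 7 were higher with trametinib in all 4 lines and 0 were lower in all 4, where 34.7% and 30.9% of all 15888 genes tested were. For 4 ligands, Wnt4, Wnt9a, Wnt11 and Wnt16, every trametinib library lay above every DMSO library, as it did for 15.1% of the genes tested. The filter, a mean of at least 10 normalized counts, was passed by 9 ligands, all but Wnt6. Of these, Wnt9a, Wnt11 and Wnt16 had a DMSO mean below 10 and passed only through their trametinib libraries. Because the ligands were chosen on this contrast, nothing is read from these counts. The change per line is given as the difference of log2(normalized count + 1) between trametinib and DMSO, which falls short of the true change where counts are low. Its median over the 10 ligands was 2.60, and over all genes tested 0.07.

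Line #3 stood apart in several ligands. It alone listed Wnt10b and Wnt11 at 0 with DMSO and Wnt7b at 0 with trametinib, and it alone had less Wnt10a with trametinib. A listed 0 is an estimate in this table, so no ratio of counts was calculated from them, while their log2 differences, which rest on the added 1, enter the means over 4 lines and the plot of changes. The values of these ligands without line #3 are given beside each.

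Wnt16 showed the strongest rise. It was listed at 1.11 normalized counts with DMSO in line #1, 2.97 in line #3, 0.886 in line #5 and 0.685 in line #10, each at or below the floor of 3 reads. With trametinib it stood at 585, 275, 126 and 1244 in lines #1, #3, #10 and #5. All trametinib libraries lay far above all DMSO libraries, with line #5 highest and line #10 lowest. The log2 difference was 7.46 ± 1.57 (SD, n = 4 lines), lowest at 6.12 in line #3 and highest at 9.37 in line #5, and only 1 of the 15888 genes tested had a larger one. As the DMSO counts rest on about 1 to 3 reads, the size of the fold is uncertain; the trametinib libraries lay between 43.8 and 517 times the floor of 3 reads. Wnt16 lies on chromosome 6 from 22288227 to 22298522 of GRCm38, on the plus strand, and its exons overlap no other annotated gene.

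Wnt9a, known from the development of joints and of blood stem cells, had the next largest rise. It went from 10.9, 4.16, 1.24 and 5.76 in lines #1, #3, #5 and #10 to 396, 432, 213 and 266 normalized counts. The 4 lines were close to each other with trametinib, at 327 ± 104 (SD, n = 4 lines). The log2 difference was 5.83 ± 0.761 (SD, n = 4 lines), and the ratio of the normalized counts was 36.4 in line #1, 104 in line #3 and 46.1 in line #10. In line #5 the DMSO value was below the floor of 3 reads. Wnt9a lies on chromosome 11 from 59306928 to 59333552. Wnt3a, which lies upstream of it on the opposite strand, was listed at 1.55 in 1 DMSO library and at 0 in the other 7 libraries.

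Wnt4, which is best known from the development of kidney and ovary, had the second highest mean per length with trametinib, although its range overlapped with that of Wnt10a, and in line #5 it lay below Wnt16 and Wnt10a. Its normalized counts went from 57.4, 104, 48.4 and 57.6 in lines #1, #3, #5 and #10 to 660.5, 1726, 299.9 and 1021. Line #3 was highest in both treatments, and the groups did not overlap. The log2 difference was 3.57 ± 0.698 (SD, n = 4 lines), and the ratio ran from 6.19 in line #5 to 17.7 in line #10. Here the DMSO counts were well above the floor in every line. Wnt4 lies on chromosome 4 from 137277489 to 137299726.

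Of the β-catenin-independent ligands, Wnt5a rose in each line, from 144, 48.5, 62.7 and 19.5 in lines #1, #3, #5 and #10 to 624, 195, 287 and 38.6 normalized counts. Because the lines differed at baseline, with line #1 highest and line #10 lowest in both treatments, the groups overlapped. The ratio was 4.34, 4.02 and 4.57 in lines #1, #3 and #5 and 1.98 in line #10, and the log2 difference was 1.81 ± 0.576 (SD, n = 4 lines) or 2.09 ± 0.0971 (SD, n = 3 lines) without line #10. Wnt11, which acts in convergent extension movements and in kidney branching, was low throughout. With DMSO it was listed at 6.20, 0, 6.53 and 1.12 in lines #1, #3, #5 and #10, and with trametinib at 24.7, 37.1, 57.3 and 9.10. The lowest trametinib library thus lay above the highest DMSO library, and the log2 difference was 3.07 ± 1.52 (SD, n = 4 lines), or 2.35 ± 0.564 (SD, n = 3 lines) without line #3. Exons of Wnt5a, on chromosome 14 from 28504750 to 28527448, and of Wnt11, on chromosome 7 from 98835112 to 98855195, overlap those of Gm2670 and Gm8398 on the opposite strand, as do those of Wnt7b and AU022754. The kit marks the strand, but whether the counting used it is not stated in the sources used here.

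Wnt10a and Wnt10b, close relatives known from hair follicles, teeth and the control of fat cell formation, responded differently in line #3. Wnt10a went from 39.2, 51.6 and 59.8 normalized counts in lines #1, #5 and #10 to 270.3, 572 and 422, ratios of 6.90, 11.1 and 7.05. In line #3 it went from 107, the highest DMSO value, to 77.0, the lowest trametinib value, a ratio of 0.718. The log2 difference was 2.13 ± 1.76 (SD, n = 4 lines), and 3.00 ± 0.386 (SD, n = 3 lines) without line #3. Wnt10b went from 82.5, 6.17 and 64.8 in the same lines to 182, 34.2 and 327, ratios of 2.20, 5.55 and 5.05. In line #3 it was listed at 0 with DMSO and at 168 with trametinib. The log2 difference of Wnt10b was 3.29 ± 2.80 (SD, n = 4 lines), and 1.91 ± 0.68 (SD, n = 3 lines) without line #3, the DMSO library of which therefore set much of the mean. Line #3 thus had less of Wnt10a and more of Wnt10b with trametinib, while both rose in the other 3 lines.

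Wnt7a, which patterns the limb and the female reproductive tract, was the ligand with the most transcripts per length and, among the 7 that were higher in all lines, the smallest rise. Its normalized counts went from 3255, 868, 3661 and 2387 in lines #1, #3, #5 and #10 to 5411, 1474, 4657 and 2626. The lines differed more from each other than the treatments did, with line #3 lowest in both. The ratio ran from 1.10 in line #10 to 1.7 in line #3, and the log2 difference was 0.49 ± 0.305 (SD, n = 4 lines). Wnt7a lies on chromosome 6 from 91363981 to 91411363, on the minus strand. Its relative Wnt7b, which acts in lung and placenta, had no common direction. With DMSO it stood at 356, 31.6, 124 and 246 in lines #1, #3, #5 and #10, and with trametinib at 243, a listed 0, 136 and 417. The log2 difference was -1.17 ± 2.63 (SD, n = 4 lines), and 0.11 ± 0.654 (SD, n = 3 lines) without line #3, so that the sign of the mean rested on that line. Wnt6 was near the detection limit, with 0 to 5.61 normalized counts with DMSO and 0 to 4.50 with trametinib, and was not tested. It was higher with trametinib in lines #3 and #10, lower in line #1 and listed at 0 in both libraries of line #5.

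**Figure D2:**
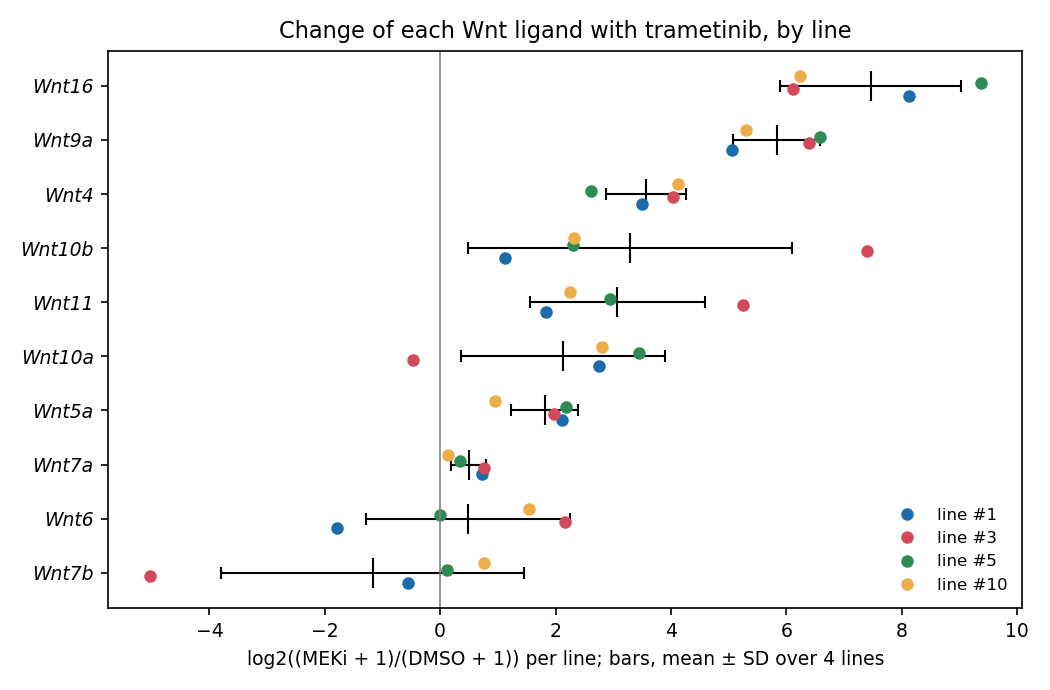
Difference of log2(normalized count + 1) between trametinib (MEKi) and DMSO for each Wnt ligand (horizontal axis); points are the 4 PDAC lines, and bars give the mean and SD. Wnt16 and Wnt9a lie at 7.46 and 5.83 on average, and line #3 lies far from the other lines for Wnt10b, Wnt10a and Wnt7b.

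The make-up of the ligand transcripts shifted with these changes. Summed over all 19 Wnt ligands, the level per kilobase was 1183 normalized counts with DMSO and 2423 with trametinib in line #1, 359 and 1203 in line #3, 1233 and 2225 in line #5, and 872 and 1551 in line #10. Wnt7a made up 86.7% of this sum with DMSO and 70.4% with trametinib in line #1, 76.2% and 38.6% in line #3, 93.6% and 66% in line #5, and 86.3% and 53.4% in line #10. Its share was lower with trametinib in each line and fell by 28.6 ± 9.15 percentage points (SD, n = 4 lines), even though its count rose. The ligands that gained differed between the lines. In line #3 Wnt4 went from 6.92% to 34.2% of the sum and Wnt9a from 0.348% to 10.8%. In line #5 Wnt16 went from 0.0165% to 12.8% and Wnt10a from 1.7% to 10.4%. In line #10 Wnt4 reached 15.7% and Wnt10a 11%, while Wnt16 reached 1.86%. In line #1 no ligand other than Wnt7a held more than the 6.50% of Wnt4. These shares follow from the levels above and are no separate evidence, and they depend on the exon lengths, since the isoforms used by each line were not known.

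**Figure D3:**
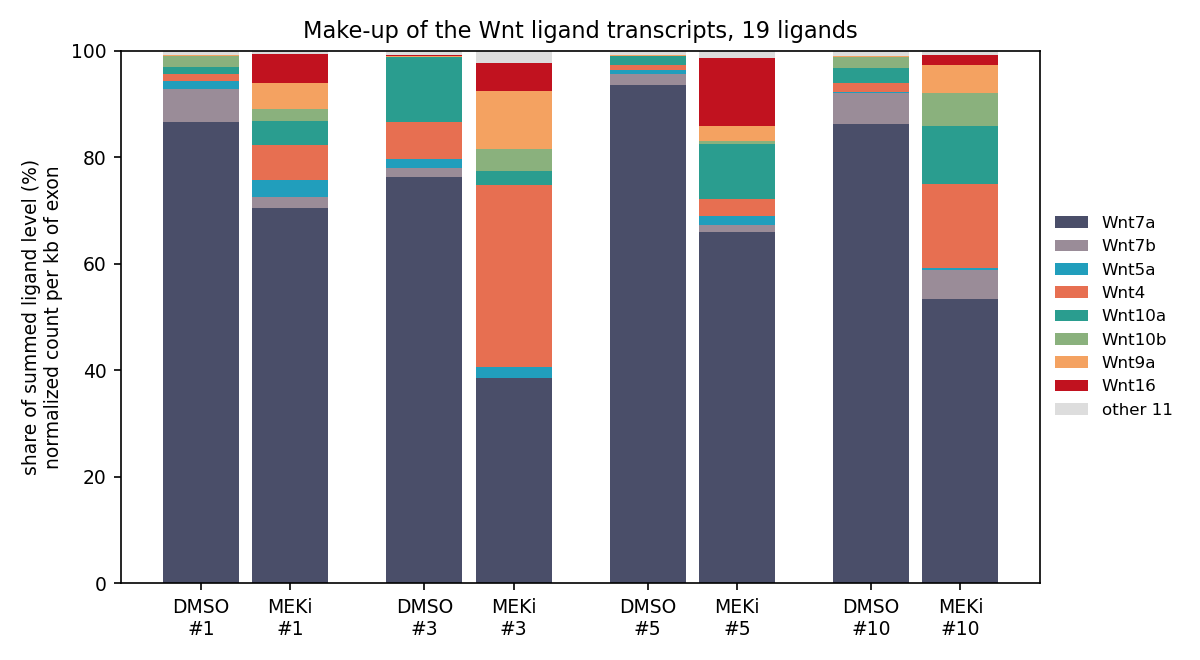
Share of each Wnt ligand (vertical axis, percent) in the summed normalized counts per kilobase of exon of all 19 ligands, for the 8 libraries. The Wnt7a share lay between 76.2% and 93.6% with DMSO and between 38.6% and 70.4% with trametinib, with Wnt4 the largest addition in line #3 and Wnt16 in line #5.

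Of the other 9 Wnt ligands, only Wnt5b passed the filter. It stood at 7.71, 6.38, 17.8 and 13.7 normalized counts in the DMSO libraries of lines #1, #3, #5 and #10 and at 6.80, 41.0, 28.7 and 14.3 with trametinib, with a log2 fold change of 0.77 (limma, SE 0.50, adjusted p = 0.24). Wnt2b reached at most 7.77 and Wnt2 at most 5.6 normalized counts. Wnt1, the neighbour of Wnt10b on chromosome 15, reached at most 3.91. Wnt3, Wnt3a, Wnt8a and Wnt9b were at 3.85 or less in every library, and Wnt8b was listed at 0 throughout. These 8 genes lay near or below the floor and were not tested with the filter. Wnt2 was listed at 0 in all 4 DMSO libraries and at 0.961 to 5.6 in the 4 trametinib libraries. Wnt2b too was higher in 4 of 4 lines, but hardly so in line #10 (1.90 to 1.91) and line #5 (4.93 to 5.56). Without the filter Wnt2 was the 1 ligand of these called higher in limma (adjusted p = 0.02), where 13.1% of all genes were. Of the 4 trametinib values of Wnt2, 3 lay at or below the floor of 3 reads, so nothing is read from this call. Wnt2b had an adjusted p of 0.21 in limma.

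Several ligand genes lie beside each other or beside other genes that changed. For each of the 10 ligands, the nearest protein-coding gene on either side was taken, by position alone. It had to pass the filter and be no ligand of the list, a rule set once the ligand values were known. The genes so taken lay from 7.5 kb (Arf3, for Wnt10b) to 1441 kb (Selenok, for Wnt5a) away, so not all are close. Of these 18 genes, 9 were higher, 4 were lower and 5 had an adjusted p of 0.05 or more in limma, against 27.3% higher and 25.6% lower of all genes tested. Only 4 were higher and 3 lower without line #1, when 21.2% of all genes tested were higher and 21.3% lower. Without the block 4 were higher and 2 lower, against 13.9% and 14.8% of all genes tested. The lower ones also numbered 2 without line #5 or line #10, when 20.8% of all genes tested were lower in each case. With equal totals or after quantile normalization they numbered 2 as well, against 20.7% and 26.6% of all genes tested. Beside Wnt16, Cped1 (31.8 kb away) rose with a log2 fold change of 1.91 (limma, SE 0.46, adjusted p = 0.013), and Fam3c (8 kb away) with 0.63 (limma, SE 0.16, adjusted p = 0.015). Both were higher in 4 of 4 lines, but their adjusted p in limma was 0.055 and 0.066 without line #1, and 0.056 and 0.21 without the block. Wnt6 and Wnt10a lie on chromosome 1, from 74771892 to 74785322 and from 74791516 to 74804179, between Prkag3 and Ihh. Prkag3, a muscle-type subunit of AMP-activated kinase, rose by 3.13 on the log2 scale (limma, SE 0.37, adjusted p = 0.00093), and the hedgehog ligand Ihh by 1.06 (limma, SE 0.25, adjusted p = 0.012, 0.051 without line #1 and 0.66 without the block). Ihh changed least in line #3, having a log2 difference of 0.10 against 1.29 to 1.55 in the other lines, and line #3 was also where Wnt10a was lower. The neighbours of Wnt7a went apart. The matrix gene Fbln2 rose by 1.30 (limma, SE 0.12, adjusted p = 0.00051) and Chchd4 had a log2 fold change of -1.27 (limma, SE 0.18, adjusted p = 0.0018). Beside Wnt9a, Snap47 rose by 1.06 (limma, SE 0.087, adjusted p = 0.00033) and Arf1 had a log2 fold change of -0.19 (limma, adjusted p = 0.13).

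The genes whose pattern over the 8 libraries was most like that of Wnt16 were Cnn1 (Pearson's r = 0.992), Rhobtb1 (r = 0.991), Myl9 (r = 0.989), Skap2 (r = 0.987) and Kantr (r = 0.986), on the scale of log2(normalized count + 1). Cnn1 and Myl9 encode proteins of the contractile apparatus. All 5 were higher with trametinib in 4 of 4 lines. The libraries share the treatment and 4 pairs of origin, and 133 tested genes had an r of at least 0.95 with Wnt16, so that these values only describe the libraries. For Wnt7a the genes were Map6 (r = 0.987), Rnd1 (r = 0.981), Parva (r = 0.976), Zc3h7b (r = 0.976) and Trim32 (r = 0.974), of which Rnd1 went from a mean of 660.4 to 1082 normalized counts.

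The machinery that releases and receives these ligands was tested in limma, blocked by cell line, with Benjamini-Hochberg adjusted p-values over 15888 genes. Over 9 lists with 103 genes of the Wnt pathway, 69 genes passed the filter, of which 32 passed the threshold of 0.05 as higher and 14 as lower, or 16 and 5 without the block. With the block this is 66.7% of those tested, where 53.0% of all genes tested were called, 27.3% as higher and 25.6% as lower. Without the block 13.9% of all genes tested were higher and 14.8% lower. The median log2 fold change of the 69 genes was 0.39, against 0.07 over all genes tested. Of the genes called in either direction, 51.6% were higher, a share that became 61.8% with the libraries set to equal totals, 47.2% after quantile normalization and 46.1% after centring on the median. These lists too were drawn up with earlier results known, so that the difference in shares is a description and is not independent of that choice. Of 10 genes for lipidation, secretion and extracellular handling, 7 were tested, 4 were higher and 0 lower. Wls, which every lipidated ligand needs to reach the surface, went from 3754 ± 1502 to 17047 ± 4045 normalized counts (SD, n = 4 lines), which is a log2 fold change of 2.23 (limma, SE 0.16, adjusted p = 0.00025). It rose from 5857, 3198, 3633 and 2331 in lines #1, #3, #5 and #10 to 18539.9, 20799, 17508 and 11341. Porcn was higher in 3 lines, most in line #3 from 1542 to 4648, and had a log2 fold change of 0.52 (limma, adjusted p = 0.15). The glypicans Gpc2 and Gpc1, heparan sulfate proteins of the cell surface, rose by 2.58 (limma, SE 0.13, adjusted p = 9.9e-05) and 0.96 (limma, SE 0.21, adjusted p = 0.0082). The fourth, the metalloprotease Trabd2b, had a log2 fold change of 1.2 (limma, adjusted p = 0.037, 0.60 without the block and 0.17 without line #5). This call was not stable and was lost in 9 of 13 alternatives. In lines #1 and #3 Trabd2b stood at 0 to 1.96 normalized counts, below the floor of 3 reads. The Wnt deacylase Notum stayed at 15.7 normalized counts or less and was not tested.

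Of 10 Frizzled receptors, 8 were tested, 5 were higher and 1 was lower, or 3 and 0 without the block, where 27.3% and 25.6% of all genes tested were called with the block and 13.9% and 14.8% without it. Fzd2 rose most, from 407 ± 101 to 2005 ± 577 normalized counts (SD, n = 4 lines), which is a log2 fold change of 2.29 (limma, SE 0.23, adjusted p = 0.00057). Fzd8 rose by 1.89 (limma, SE 0.35, adjusted p = 0.0042, 0.15 without the block), Fzd6 by 1.00 (limma, SE 0.11, adjusted p = 0.00068) and Fzd1 by 0.95 (limma, SE 0.12, adjusted p = 0.0012). Fzd7 rose by 0.73 (limma, adjusted p = 0.0021, 0.40 without the block). Fzd5, by contrast, went from 4949 ± 2485 to 2869.8 ± 746 normalized counts (SD, n = 4 lines), which is a log2 fold change of -0.71 (limma, SE 0.22, adjusted p = 0.032, 0.13 without the block), lower in 4 of 4 lines. This call was not stable. The adjusted p of Fzd5 in limma was 0.080 without line #3, 0.12 without line #10 and up to 0.061 with the libraries scaled in other ways. Fzd10 was listed at 0 in all libraries.

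Among 10 co-receptors and other receptors, 8 were tested, 3 were higher and 2 lower, or 2 and 1 without the block, beside the same shares of all genes tested, 27.3% and 25.6% with the block and 13.9% and 14.8% without. Mcam, an adhesion molecule that can bind Wnt5a, rose from 41.9 ± 7.78 to 1688 ± 762 normalized counts (SD, n = 4 lines), which is a log2 fold change of 5.20 (limma, SE 0.26, adjusted p = 9.6e-05). Mcam is also found on endothelial cells, and of the 4 endothelial markers Tek rose too, with a log2 fold change of 3.77 (limma, adjusted p = 0.0015), higher in 4 of 4 lines and most in line #3 from 21.5 to 805 normalized counts. Kdr, also higher in 4 of 4 lines, had a log2 fold change of 0.43 (limma, adjusted p = 0.28). Pecam1 stood at 6.50 to 15.6 normalized counts with DMSO and 6.95 to 14.1 with trametinib, and Cdh5 at 0 to 3.50 and 0 to 17.5. The part of endothelial cells in the Mcam result was not tested. Ror1, a receptor of Wnt5a, rose by 1.49 (limma, SE 0.19, adjusted p = 0.0012, 0.24 without the block), and Ptk7 by 0.86 (limma, adjusted p = 0.0047). Ror2 was lower in 3 lines but higher in line #3, its log2 fold change being -0.66 (limma, adjusted p = 0.076, 0.0043 without line #3). Ryk had a log2 fold change of -0.0014 (limma, SE 0.097, adjusted p = 0.99). Lrp5 had one of -0.37 (limma, SE 0.10, adjusted p = 0.020), and Lrp6 one of 0.25 (limma, adjusted p = 0.054). The adjusted p of Lrp5 in limma was 0.083 without line #1, 0.092 without line #5, 0.059 without line #10 and up to 0.081 with other scalings, and that of Lrp6 was 0.013 with the libraries set to equal totals. Of the pair of co-receptors that Wnt7a and Wnt7b use, Adgra2 went from 248 ± 91.1 to 128 ± 34.7 normalized counts (SD, n = 4 lines), with a log2 fold change of -0.91 (limma, adjusted p = 0.011, 0.066 without the block), and Reck stood at 0.733 to 9.97 with DMSO and 7.95 to 21.8 with trametinib, below the filter.

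Of 17 antagonists, 8 were tested, 4 were higher, or 2 without the block, and 1 was lower, where 27.3% and 25.6% of all genes tested were called with the block and 13.9% and 14.8% without it. Sfrp4, a secreted Frizzled-related protein, rose from 23.5 ± 5.30 to 716 ± 447 normalized counts (SD, n = 4 lines), with a log2 fold change of 4.73 (limma, SE 0.35, adjusted p = 0.00027). Kremen1, which works with Dkk proteins against Lrp6, rose by 0.90 (limma, adjusted p = 0.0023), and Dkk3 by 1.53 (limma, adjusted p = 0.015, 0.15 without the block and 0.062 after quantile normalization), from 5.80 ± 7.01 to 16.6 ± 14.2 normalized counts (SD, n = 4 lines). Draxin, which binds Lrp6 as Dkk proteins do, rose by 1.47 (limma, adjusted p = 0.016, 0.45 without the block and 0.054 without line #5). Apcdd1, a membrane inhibitor, had a log2 fold change of -2.30 (limma, SE 0.44, adjusted p = 0.0051), and was lower in 4 of 4 lines. Dkk1 reached at most 4.68 normalized counts, and Wif1, Sfrp5 and Sost were listed at 0 in all libraries.

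**Figure D4:**
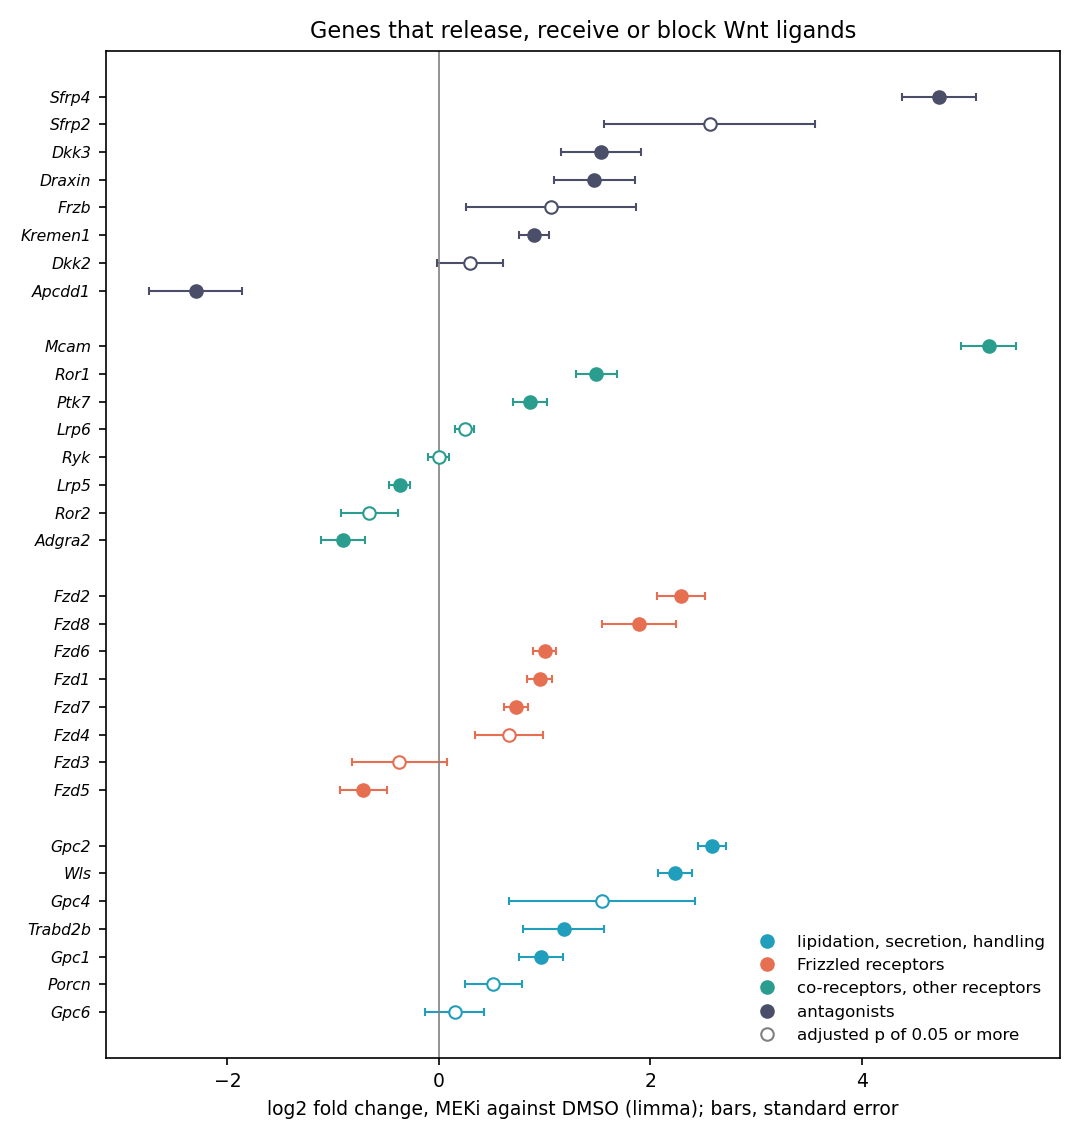
Log2 fold change with trametinib (horizontal axis, MEKi against DMSO, limma; bars give the standard error) of the tested genes that release, receive or block Wnt ligands, 4 PDAC lines. Filled points have an adjusted p under 0.05; Mcam at 5.20 and Sfrp4 at 4.73 lie farthest to the right and Apcdd1 at -2.30 farthest to the left.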

How the data were processed

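Libraries of 4 PDAC lines, DMSO or trametinib, had been prepared from polyA RNA with a TruSeq stranded kit. A further allele of the mouse model is not reported here. The values deposited by the authors are normalized counts, a signal made from estimated reads per gene and scaled between libraries. The submitters' processing notes name CASAVA 2.17, Salmon 0.12, DESeq2 1.18 and mm10, and the transcript annotation is not given in the sources used here. Of the values under 20 reads, 56.0% to 68.5% lay within 0.05 reads of a whole multiple, so reads were not recovered, and no count test was run. Whether this came from a scaling that differed between genes was not tested.

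Here log2(normalized count + 1) was fitted with limma 3.58.1 in R 4.3.3, with trend, for the 15888 of 34478 genes with a mean of at least 10, blocked by cell line, and p-values were adjusted by Benjamini-Hochberg with a threshold of 0.05. Pairing follows from the labels, since libraries of the same number are of the same line, and their deviations from the group means correlated at 0.64, 0.65, 0.63 and 0.72 in lines #1, #3, #5 and #10. The fit was tested on simulated data. The ligands and all gene lists were chosen with earlier results of these data known. Named were all 19 ligands, the called genes of each pathway list with the largest folds, partners of textbook relevance, and the 5 genes most like Wnt16 and Wnt7a. The genes beside the ligands, Col1a1 and Tek were chosen after the values had been seen. Alternatives were 2 pseudocounts, 2 filters, 3 scalings, no block, 2 variance estimates and leaving out each line. Positions and lengths are from GENCODE M21 (GRCm38, the same build as mm10), and promoters from RefSeq, plotted values from Python 3.11.15 with matplotlib 3.10.9.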

Additional observations from a re-analysis of the deposited data

Results flagged for a closer look

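In 88 groups of 4 values, 5 held a value far from the other 3, where chance gives about 4.4. The Wnt4 level in the DMSO library of line #3 was 104 normalized counts, against 48.4 to 57.6 in the other lines. The log2 difference of Wnt5a was 0.949 in line #10, against 1.98 to 2.18. The Wnt6 level in the DMSO library of line #1 was 5.61 normalized counts, against 0 to 0.897, near the floor of 3 reads. The log2 difference of Fzd2 was 3.22 in line #3, against 1.92 to 2.02. The log2 difference of Fbln2, beside Wnt7a, was 0.968 in line #1, against 1.38 to 1.44.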

How the results depend on the processing

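Of the 10 ligands, all but Wnt6 and Wnt7b kept the sign of their mean log2 difference over 2 pseudocounts, 3 scalings and each line left out. Without line #3 that of Wnt6 went from 0.48 to -0.084 and that of Wnt7b from -1.17 to 0.11. Only that of Wnt9a moved by more than its SD, to 5.00 with a pseudocount of 5. With a line left out, 7 to 8 ligands were higher in all remaining lines, 8 only without line #3, and 0 were lower. The share of all genes tested is not given for the remaining lines, and the ligands were chosen on this contrast. Nothing is therefore read from these counts. Without the replicate block, that is without the pairing by line, genes higher numbered 2205 and genes lower 2347 in limma, in place of 4341 and 4075, and Wnt pathway genes 16 and 5, in place of 32 and 14. With equal totals 8 Wnt pathway genes were lower, where 20.7% of all genes tested were, in place of 14 and 25.6%. In that scaling the median of all genes tested moved from 0.07 to 0.20 on the log2 scale. It was -0.032 after quantile normalization and 0.013 after median centring. With a line left out, genes higher numbered 3383 to 4195, genes lower 3302 to 4007, and Wnt pathway genes 27 to 30 and 10 to 14. Of 1595 other values, for single genes and lists, 1423 kept their call, stayed within 1 SD (ligands) or, for counts, stayed within 1.5 times the count reported, 114 lost a call, 12 gained one, 46 moved, and no called gene reversed; the sign changes of Wnt6 and Wnt7b above lie within their SD. The cause of these changes was not tested. Depth limits Wnt6, Wnt11, the DMSO values of Wnt16 and Wnt9a, and the ligands at or near the floor of 3 reads.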

Other observations

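Genes of planar cell polarity, a β-catenin-independent branch that orients cells within a sheet, were tested for all 11 listed members, of which 6 were higher and 1 was lower, or 4 and 0 without the block. With the block this is 63.6% called, where 53.0% of all genes tested were, 27.3% as higher and 25.6% as lower. Without the block 13.9% of all genes tested were higher and 14.8% lower. Prickle2 rose by 2.34 on the log2 scale (limma, SE 0.47, adjusted p = 0.0060, 0.057 without the block), Prickle1 by 1.73 (limma, adjusted p = 0.0063), Prickle3 by 1.21 (limma, adjusted p = 0.0011), Vangl2 by 1.12 (limma, adjusted p = 0.016) and the formin Daam1 by 0.82 (limma, adjusted p = 0.0018). Scrib had a log2 fold change of -0.51 (limma, adjusted p = 0.0035, 0.060 without the block).

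In the β-catenin branch, 9 of 15 listed target genes were tested, of which 2 were higher and 5 lower, or 0 and 3 without the block. With the block this is 77.8% called, against 53.0% of all genes tested. Axin2, a widely used target, went from 26.5, 6.92, 98.3 and 36.9 in lines #1, #3, #5 and #10 to 70.2, 23.9, 325 and 83.8 normalized counts, a log2 fold change of 1.47 (limma, SE 0.23, adjusted p = 0.0023, 0.26 without the block). Prox1, the other target called higher, had a log2 fold change of 1.73 (limma, adjusted p = 0.033, 0.42 without the block) and lost its call in 7 of 13 alternatives, among them those without line #3, #5 or #10. Ccnd1, Cd44 and Myc, which also depend on other pathways, had log2 fold changes of -2.03, -1.32 and -1.01 (adjusted p = 0.00033, 0.0016 and 0.00031 in limma). The other targets called lower were Tcf7 and Znrf3, each lower in 4 of 4 lines. Their log2 fold changes were -0.96 and -0.39 (adjusted p = 0.0015 and 0.020 in limma). Lgr5 had one of -1.07 (limma, adjusted p = 0.082). Of 18 genes of the cascade, 16 were tested, 7 were higher and 5 lower, without the block 2 and 0, which is 75.0% called with the block. Apc2 rose by 2.15 (limma, adjusted p = 0.0011, 0.098 without the block), Tcf7l1, a mostly repressing TCF factor, by 1.23 (limma, adjusted p = 0.0032, 0.072 without the block) and Bcl9, a β-catenin partner, by 0.87 (limma, adjusted p = 0.0045). Tcf7 had a log2 fold change of -0.96 (limma, adjusted p = 0.0015, 0.098 without the block). In the R-spondin module, 5 of 9 genes were tested, of which Lgr4 was called higher and Znrf3 lower, which is 40% called against 53.0% of all genes tested. Neither call held without the block (adjusted p = 0.46 and 0.14 in limma).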
